A study of Mus musculus with 4 samples.

Results

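The region examined is the imprinted domain between Snrpn and Ube3a on mouse chromosome 7, read through the repeats that lie in it. Its members are the LINE and LTR loci that start between positions 66400000 and 67200000 (mm9), together with the intervals that flank repeats starting there. This gave 332 of the 640693 entries of the series, namely 80 LINE loci, 5 LTR loci and 247 flanking intervals. The region was chosen by the embryo counts of an L1M5 element in it, which were 0 in the WT E13.5 embryo and high in the Lsh-/- embryo, so the embryo values given here describe what the choice already used. Counts near the limits of the region were low. The outermost LINE loci inside it held at most 10 counts in any library, and the nearest ones outside held 1 or 0.

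RNA from C57BL/6J mice was sequenced with 1 library in each of 4 groups. The fibroblast libraries came from SV40-transformed cultures of adult tail-tips, 1 WT and 1 Lsh-/- line, and the embryo libraries from whole E13.5 embryos, 1 WT and 1 Lsh-/-. The labels call the control embryos WT, while the study's methods name heterozygous beside homozygous embryos. With 1 library per group there was no replicate check and no test. Genotype therefore cannot be told apart from the cell line or embryo, and in whole embryos fewer cells of a type cannot be told apart from less RNA per cell.

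Lsh, encoded by Hells, is a chromatin remodeller of the SNF2 family that is needed for normal DNA methylation of repeats. Snrpn encodes a spliceosomal protein and shares its promoter and first exons with Snurf, and both are expressed from the paternal allele. A long non-coding transcript continues from Snrpn towards Ube3a. It is the host of the SNORD116 and SNORD115 box C/D snoRNAs, and in neurons it runs antisense into Ube3a, an E3 ubiquitin ligase gene that neurons express from the maternal allele. Loss of the paternal genes is known from Prader-Willi syndrome and loss of maternal UBE3A from Angelman syndrome. IAP elements are young LTR retrotransposons that DNA methylation keeps silent, whereas L1M5, L1MB7, L2 and L3 are old families whose copies are mostly short fragments. Names that begin with Lx mark rodent LINE-1 families.

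The 6 tables of a library held between 19216257 and 33904311 counts in all, and their LINE tables between 456109 and 855043. The targeted gene matched the labels. An interval over middle exons of Hells held 636 counts in WT fibroblasts, 273 in the WT embryo and 0 in both Lsh-/- libraries. Other intervals of the gene kept reads. The one from 39033440 held 1031 in WT and 1079 in Lsh-/- fibroblasts, and 413 and 290 in embryos. Intervals around LINE loci on chromosome Y held 12 counts in WT against 5402 in Lsh-/- fibroblasts, against 19973 in WT and 20654 in Lsh-/- embryos, so the fibroblast lines also differed in Y-linked reads. Of the fibroblast markers, all 5 had an interval and counts in every library. Each was read by its largest interval in a library, without scaling for depth. These counts summed to 65164 in WT and 47524 in Lsh-/- fibroblasts. In WT and Lsh-/- embryos they summed to 264164 and 242522, so the sums were higher in whole embryos than in fibroblasts.

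The sequences of 3 LINE elements and of the Snrpn promoter are shown first, because the results turn on reads over and around them. Bases are in lower case and CpG dinucleotides, the sites of DNA methylation, are in capitals. The L1M5 and L3 fragments lie 261 bp apart near the SNORD116 genes, and the Lx2B element lies below Ube3a. Up to 300 bases of each, 5′ to 3′ on the element's own strand, read as follows.
L1M5, chr7:66922372-66922671, plus strand: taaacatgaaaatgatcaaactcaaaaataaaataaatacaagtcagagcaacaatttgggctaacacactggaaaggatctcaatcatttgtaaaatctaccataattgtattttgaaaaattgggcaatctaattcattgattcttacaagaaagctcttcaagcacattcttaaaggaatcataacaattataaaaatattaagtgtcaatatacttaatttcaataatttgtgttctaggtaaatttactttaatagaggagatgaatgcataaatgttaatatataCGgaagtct
L3, chr7:66922939-66923007, minus strand: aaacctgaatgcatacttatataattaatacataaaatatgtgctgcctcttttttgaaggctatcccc
Lx2B, chr7:66453326-66453625, minus strand: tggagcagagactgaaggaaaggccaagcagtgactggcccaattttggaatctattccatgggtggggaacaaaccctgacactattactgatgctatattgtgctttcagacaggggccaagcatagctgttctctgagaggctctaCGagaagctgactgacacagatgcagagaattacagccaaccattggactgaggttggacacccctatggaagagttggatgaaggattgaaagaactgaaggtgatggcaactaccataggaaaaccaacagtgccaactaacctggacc
The 250 bases before the Snrpn and Snurf start site, from RefSeq (GRCm38.p6), matched mm9 exactly at 1 place on chromosome 7 and are given there on the minus strand.
Snrpn promoter, chr7:67150086-67150335, minus strand: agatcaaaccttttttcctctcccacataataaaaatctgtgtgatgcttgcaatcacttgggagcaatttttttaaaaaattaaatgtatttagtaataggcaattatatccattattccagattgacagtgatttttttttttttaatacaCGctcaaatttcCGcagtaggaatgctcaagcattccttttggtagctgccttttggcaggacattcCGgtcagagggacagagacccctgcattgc
The printed stretches of L1M5 and Lx2B each held 1 CpG, L3 held 0 and the promoter stretch 3. Over its full 300-base window, which runs 50 bases past the start site, the Snrpn promoter held 7 CpGs, and 52.4% of 32544 promoter windows of that length held at least as many. The 6 letters TGCCGC, the core of the motif of ZFP57, a zinc-finger protein known for keeping imprints methylated, matched that window 1 time with both strands searched, and 11.7% of all promoter windows held a match.

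The L1M5 element at chr7:66922335-66922677 and the L3 fragment beside it had the largest ratios of all LINE members in the embryo pair. No gene of the annotation used overlaps them, but they lie between the SNORD115 and SNORD116 genes, on the path of the long host transcript described above. Whether their reads belong to that transcript was not tested. They lie 6153 bp below the SNORD116 gene of lowest coordinate, called the first here, and 204710 bp below the annotated end of Snrpn. L1M5 held 0 counts in WT against 326 in Lsh-/- embryos, and 0 in WT and 32 in Lsh-/- fibroblasts. L3 held 0 and 220 counts in embryos and 0 and 24 in fibroblasts. Reads were thus found on both elements in both Lsh-/- libraries and in neither WT library. Set against a floor of 3 counts per WT library, the limit that a count of 0 allows, the sum over both elements was 189-fold higher in Lsh-/- embryos. The region was chosen on the embryo values. The floor leaves out the counting error of the Lsh-/- count, and the lower limit of the exact 95% interval was 153-fold. In fibroblasts, which the choice did not use, the sum was 18.1-fold higher against the floor, with a lower limit of 14.2. Between the Lsh-/- libraries the sum was 6.25-fold higher in the embryo (95% interval 4.74 to 8.38). Such intervals are exact conditional Clopper-Pearson intervals of a ratio of 2 scaled counts and cover counting error only.

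Reads were also found on sequence around these elements. The 1-kb interval chr7:66922256-66923255, listed as flanking a L2 element, covers L1M5 and L3 and shares their reads. It held 0 counts in WT against 161 in Lsh-/- fibroblasts, and 5 in WT and 1197 in Lsh-/- embryos. The difference was 249-fold in embryos (106 to 767), a value that includes the L1M5 reads by which the region was chosen. In fibroblasts it was 52.0-fold against the floor (lower limit 41.8). Above it, the interval that starts at 66924156 and flanks a L1Md_F2 element held 0 and 43 counts in fibroblasts and 2 and 288 in embryos. An overlapping interval from 66924801 held 0 and 42, and 2 and 287, and shares most of those reads. The interval from 66928418, which overlaps the first SNORD116 gene, held 0 and 34 counts in fibroblasts and 6 and 252 in embryos, 43.6-fold higher in the Lsh-/- embryo (19.8 to 120). The reads were not continuous between these places. The intervals from 66925140, 66925679, 66926067 and 66927626 held 0 to 3 counts in Lsh-/- fibroblasts, 0 to 6 in Lsh-/- embryos and 0 in WT. Separate places below and at the first SNORD116 gene thus carried reads in the Lsh-/- libraries, with few or none in WT. Of the 27 SNORD116 and 137 SNORD115 genes annotated, single genes were not measured.

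**Figure D1:**
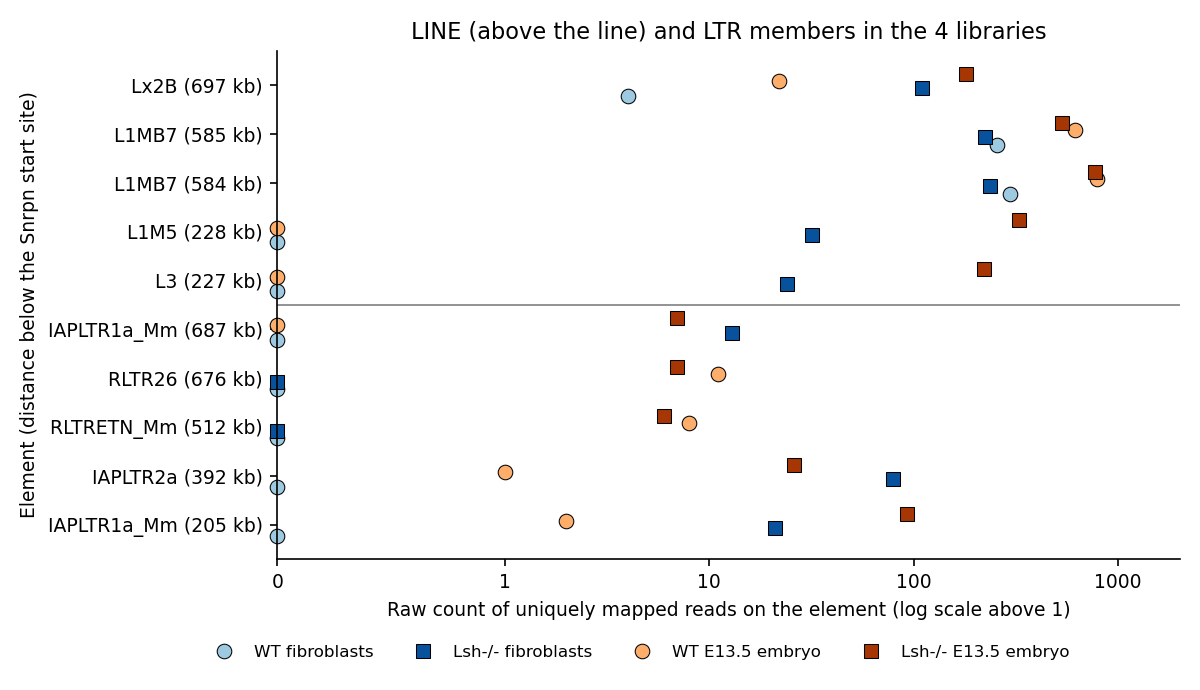
Raw counts on the 5 LINE members with the largest totals and on all 5 LTR members, in the 4 libraries (1 point per library, log axis above 1 count, distance of each element from the Snrpn start site in kb). L1M5, L3 and the 3 IAP elements had 0 to 2 counts in the WT libraries and 7 to 326 in the Lsh-/- libraries, while the L1MB7 points of WT and Lsh-/- lay close together.

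The other L1M5 loci differed less. The element at chr7:66455152-66455256 held 0 and 1 counts in fibroblasts and 0 and 7 in embryos, in the order WT and Lsh-/-, and the one at chr7:66455404-66455518 held 0 and 0, and 0 and 6. Inside Ube3a introns, the L1M5 at chr7:66545158-66545463 held 1 and 4, and 10 and 13 counts. The L1M5 at chr7:66546115-66546529 held 0 and 2, and 7 and 10 counts. Between the embryos these intronic copies had ratios of 1.35 (0.547 to 3.44) and 1.48 (0.510 to 4.59), with intervals that span no difference.

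Across the region, LINE loci were sparse in reads. Of the 80 LINE members, 51 held fewer than 10 counts over all 4 libraries and 5 held 50 or more. In WT fibroblasts 30 were listed, in Lsh-/- fibroblasts 35, in WT embryos 46 and in Lsh-/- embryos 61. Their median width was 310 bp. By annotation, 48 lie between genes, 25 in introns of Ube3a and 7 in introns of Snrpn. No LINE member was listed in a stretch of 292934 bp that spans all 137 SNORD115 genes.

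A member was counted as higher or lower where the log2 ratio of its scaled counts was past 1 in either direction, with at least 10 counts in the pair of libraries. In the embryo pair, 21 of 80 LINE members had 10 counts. Of these, 9 were higher in Lsh-/-, where 21.3% of all LINE loci were, and 2 were lower, against 20.7%. The counting interval lay above no difference for 6 of the 9 and spanned it for both lower ones. In the fibroblast pair, 8 members had 10 counts and 4 of them were higher (24.1% of all LINE loci) and 1 lower (18.2%), the higher 4 with intervals above no difference. These 4 are close neighbours, L1MEg beside Lx2B and L1M5 beside L3, so they are not 4 separate places. All 4 are also among the 9 of the embryo pair. The median log2 ratio of the members was 0.56 in embryos and 2.61 in fibroblasts, beside 0.04 and 0.09 over all LINE loci with 10 counts. The fibroblast median fell in a gap between the 4 higher members, at 4.69 and above, and the others, at 1 or below.

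Below Ube3a, a Lx2B element at chr7:66453004-66454153 had the most reads. It held 4 counts in WT against 110 in Lsh-/- fibroblasts, 26.6-fold higher (10.1 to 99.5), and 22 in WT and 181 in Lsh-/- embryos, 8.54-fold higher (5.47 to 14.0). Between the Lsh-/- libraries its scaled counts differed by 1.05-fold (0.827 to 1.35). The L1MEg fragment next to it, at chr7:66452599-66452779, held 0 and 12 counts in fibroblasts and 5 and 14 in embryos. Intervals over the same place share these reads. The one from 66452511 held 5 and 117, and 14 and 182 counts, and the one from 66452723 held 4 and 113, and 9 and 178. Over all 14 LINE members below Ube3a the log2 ratio of the sum was 3.06 in fibroblasts and 2.24 in embryos, and without Lx2B it was 1.45 and 0.95. The Lx2B lies 5002 bp below an IAPLTR1a_Mm element described with the LTR members, and 29968 bp below the start of Ube3a. Further towards Ube3a, a L1_Rod element at chr7:66477457-66480300 went the other way, with 9 and 3 counts in fibroblasts and 7 and 3 in embryos, and both intervals spanned no difference. Another L1_Rod fragment, at chr7:66480609-66480769, held 0 and 1, and 7 and 3 counts.

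Within Ube3a, the 25 intronic LINE loci held 48 counts in WT against 18 in Lsh-/- fibroblasts, and 75 in WT and 129 in Lsh-/- embryos. Their summed level was 0.363-fold in Lsh-/- fibroblasts (0.199 to 0.636) and 1.79-fold in Lsh-/- embryos (1.33 to 2.41), so the libraries of the 2 tissues lay on opposite sides of no difference. With the total of all tables as library size the fibroblast value was 0.581 (0.318 to 1.02), with an interval that reached no difference. A L1MB2 fragment at chr7:66506479-66506928 held 5 and 3 counts in fibroblasts and 0 and 14 in embryos. A L1_Mm fragment at chr7:66518771-66518885 held 1 and 1, and 0 and 16 counts.

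Past the 3′ end of Ube3a, 2 fragments of L1MB7 held most LINE reads of the region. They start 3110 bp beyond the annotated end of the gene, at chr7:66565208-66565676 and chr7:66565691-66567024. The first held 257 counts in WT against 224 in Lsh-/- fibroblasts, and 612 in WT and 532 in Lsh-/- embryos. The second held 295 and 235, and 787 and 770. Together they made up 88.0% of the LINE counts of the region in WT fibroblasts, 65.6% in Lsh-/- fibroblasts, 87.2% in WT embryos and 55.9% in Lsh-/- embryos. Their summed level was 0.966-fold in Lsh-/- embryos (0.895 to 1.04) and 0.805-fold in Lsh-/- fibroblasts (0.710 to 0.913), and the latter turned to 1.29-fold (1.14 to 1.46) with the total of all tables as library size. Because these fragments dominate, the region's LINE sum was 1.08-fold in Lsh-/- fibroblasts (0.969 to 1.21) although L1M5, L3 and Lx2B differed. With the total of all tables as library size that sum was 1.73-fold (1.55 to 1.93).

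Between Ube3a and the SNORD115 genes, a L1_Mus1 fragment at chr7:66577916-66578197 held 0 and 0 counts in fibroblasts and 2 and 9 in embryos. A Lx4B element at chr7:66587852-66589090 held 1 and 3, and 9 and 19. Their embryo intervals spanned no difference (0.967 to 44.4 and 0.945 to 5.50). In an intron of Snrpn, a Lx fragment at chr7:67139213-67139422 held 10 counts in Lsh-/- embryos and 0 in the other libraries. All 7 LINE loci of Snrpn introns together held 0 and 1 counts in fibroblasts and 27 and 28 in embryos, a ratio of 1.08 in embryos (0.612 to 1.90).

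**Figure D2:**
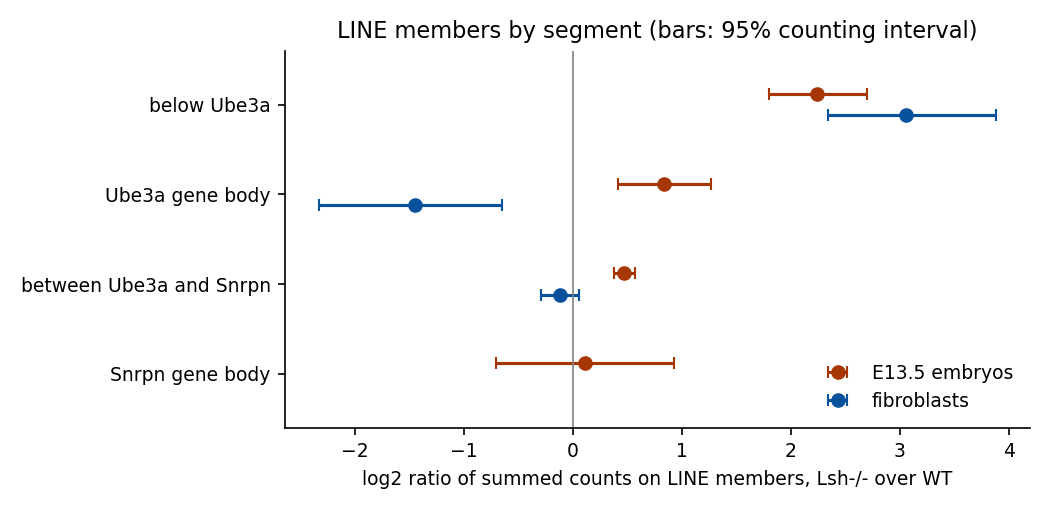
Log2 ratio of summed LINE counts, Lsh-/- over WT, for the 4 segments of the region (points, bars are 95% counting intervals of 1 library against another). Below Ube3a both tissues lay above 0, at 2.24 in embryos and 3.06 in fibroblasts, over Ube3a the points lay at 0.84 and −1.46, and Snrpn introns held too few fibroblast reads to draw.

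All 5 LTR members are long, at 4753 to 7297 bp, and lie outside the genes of the annotation used, which does not list the full host transcript. The IAPLTR2a element at chr7:66754229-66761525 stands in the span of the SNORD115 genes and held 0 counts in WT against 79 in Lsh-/- fibroblasts, and 1 in WT and 26 in Lsh-/- embryos. Against the floor it was 25.5-fold higher in Lsh-/- fibroblasts (lower limit 20.3), and the embryo ratio was 27.0 (4.43 to 1107). The IAPLTR1a_Mm at chr7:66941460-66948539 lies in the span of the SNORD116 genes, 18782 bp above L1M5. It held 0 and 21 counts in fibroblasts, 6.78-fold against the floor (lower limit 5.04), and 2 and 93 in embryos, a ratio of 48.3 (13.0 to 405). The IAPLTR1a_Mm at chr7:66459156-66466236, above Lx2B, held 0 and 13 counts in fibroblasts, 4.20-fold against the floor (lower limit 2.95), and 0 and 7 in embryos. All 3 IAP members thus had reads in both Lsh-/- libraries and 2 counts or fewer in WT.

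The 2 other LTR members did not have that pattern. RLTR26 at chr7:66470502-66476868 held 0 counts in both fibroblast libraries, 11 in WT and 7 in Lsh-/- embryos (0.661-fold, 0.217 to 1.87). RLTRETN_Mm at chr7:66635644-66640396 held 0 and 0, and 8 and 6 counts (0.779-fold, 0.223 to 2.56). Counting members with 10 counts, 2 of 4 LTR loci were higher in Lsh-/- embryos, where 51.0% of all LTR loci were, and 0 were lower (11.9%). In fibroblasts 3 of 3 were higher (78.3%) and 0 lower (4.52%). With so few members these shares do not set the region apart from the whole LTR table. Between the mutant tissues the IAP members differed from one another. IAPLTR2a was 0.211-fold in the Lsh-/- embryo relative to Lsh-/- fibroblasts (0.130 to 0.332), whereas the IAPLTR1a_Mm near L1M5 was 2.84-fold (1.75 to 4.80), on the same side as L1M5 and L3.

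The 5 intervals that flank LTR loci of the region, placed as LINE flanks were, held few reads. That below RLTR26, from 66459502, overlaps the first IAPLTR1a_Mm and held 0 and 12 counts in fibroblasts and 0 and 7 in embryos. The others, at 66448156, 66930460, 67146419 and 66486869, held at most 12 counts in any library. The one at 67146419 flanks RLTR14, which is not among the LTR members. It held 0 counts in both fibroblast libraries, 2 in WT and 12 in Lsh-/- embryos, 6.23-fold higher (1.39 to 57.3).

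The flanking tables reach sequence that holds no listed repeat, exons included. Each interval is the 1 kb between 10 and 11 kb from a repeat, and intervals that overlap share reads, so 247 entries cover 91 separate places. In the embryo pair 133 entries had 10 counts. Of these, 61 were higher in Lsh-/- (14.3% of all flanking intervals) and 4 lower (14.3%), and the counting interval lay off no difference for 46 and 2 of them. Read by the largest entry of each place, 22 of 44 places were higher and 0 lower. In the fibroblast pair 34 of 77 entries were higher (18.9%) and 15 lower, where 15924 of all 118174 flanking intervals with 10 counts were, so that 49 were past the limit in either direction, as 32.3% of all flanking intervals were. By place this came to 12 higher and 5 lower of 27. The median log2 ratio of entries was 0.80 in embryos and 0.17 in fibroblasts, against −0.02 and 0.09 over all flanking intervals.

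**Figure D3:**
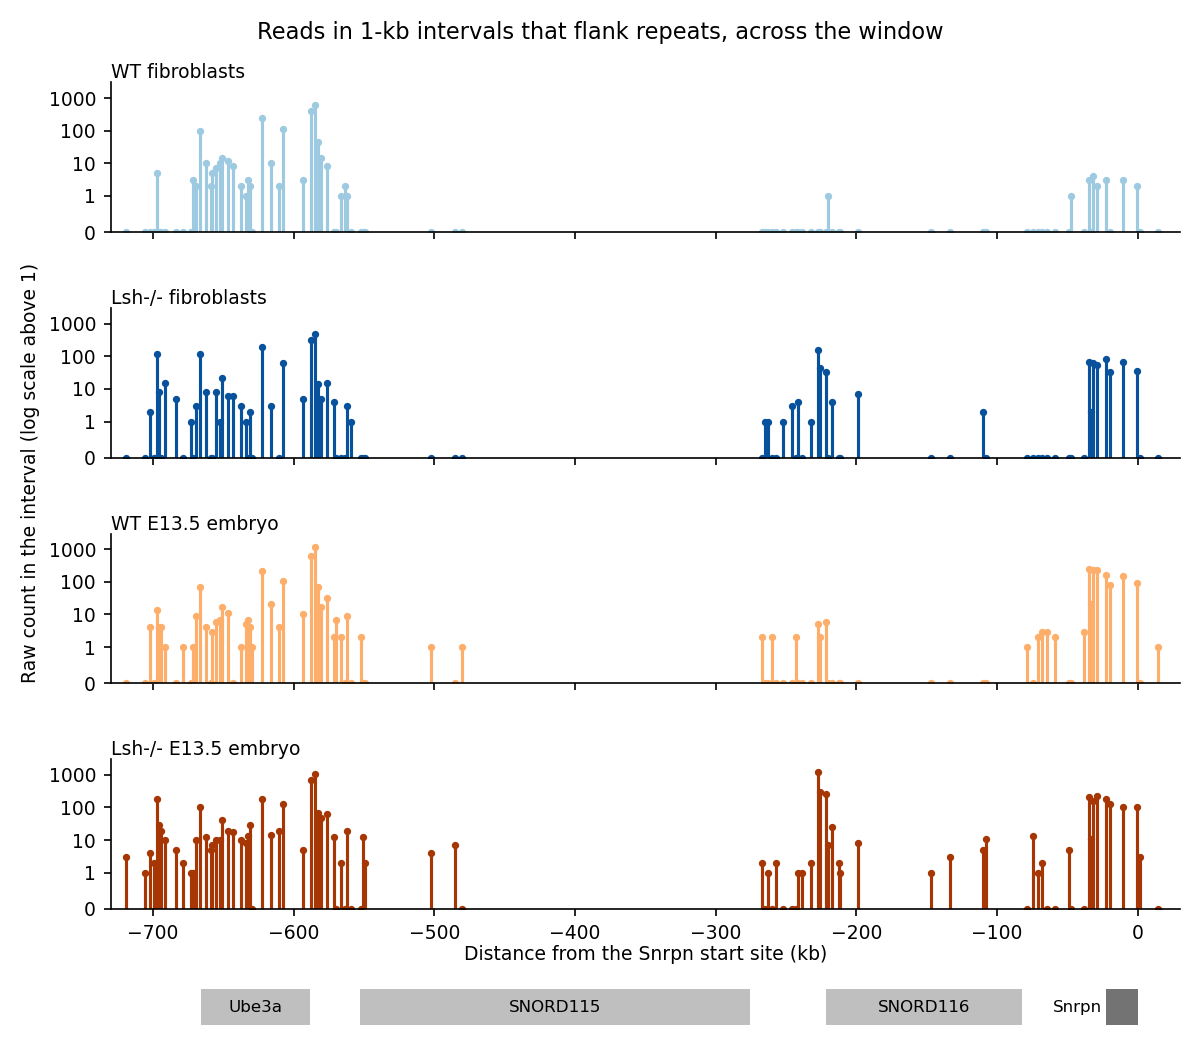
Raw counts in the entry with the largest total of each of the 91 places, in the 4 libraries, by distance from the Snrpn start site in kb (log axis above 1 count, grey bars mark Ube3a, the spans of the snoRNA genes and the short Snrpn transcript). The tallest points near Ube3a have like counts in WT and Lsh-/- of the same tissue, and higher counts in embryos, while smaller ones differ. Below Ube3a and near the SNORD116 genes reads stand out in the Lsh-/- libraries. At Snrpn WT fibroblasts hold 0 to 4 counts where the others hold up to 255.

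At Snrpn the tissues differed. The 8 intervals over Snrpn exons held 0 to 3 counts in WT fibroblasts and 3 to 82 in Lsh-/- fibroblasts, and 9 to 165 in WT and 17 to 181 in Lsh-/- embryos. WT fibroblasts were below every other library at each of these intervals, while the embryo ranges overlapped. The largest, from 67127452, held 3 and 82 counts in fibroblasts, 26.5-fold higher in Lsh-/- (8.74 to 131), and 165 and 181 in embryos, a ratio of 1.14 (0.917 to 1.42). The interval from 67140248 held 3 and 66, a ratio of 21.3 (6.98 to 106), and 158 and 92, a ratio of 0.605 (0.462 to 0.787). At the promoter printed above, the interval from 67149423 held 2 and 35, and 95 and 102 counts, and the one from 67149556 nearly the same reads. All 7 Snrpn exon intervals with 10 counts in fibroblasts were higher in Lsh-/- (18.9% of all flanking intervals), with a median log2 ratio of 4.36. All 8 in embryos lay within 1 of 0, with a median of 0.17.

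Sequence close to Snrpn, on the side of the SNORD116 genes, had the same pattern. Fibroblast reads stood from 67113753 upward, while intervals from 67070650 to 67113536 held 0 or 1 counts in either fibroblast library. Of 39 intervals between the SNORD116 genes and Snrpn that touch no annotated exon, 17 had 10 counts in fibroblasts. All 17 were higher in Lsh-/- (18.9% of all flanking intervals), with a median log2 ratio of 5.62. In embryos 18 of 24 lay within 1 of 0, 5 were higher and 1 lower, with a median of −0.11. The interval from 67114768 held 3 counts in WT against 66 in Lsh-/- fibroblasts, and 255 in WT and 205 in Lsh-/- embryos. Many of these intervals overlap and share reads. Markers of neural cells were examined beside them, since neurons are known to express much Snrpn. Of 6 neural markers, Map2, Nes and Sox2 had no interval. Each of the others was read by its largest interval in a library. Stmn2 held 2 counts in WT against 130 in Lsh-/- fibroblasts, Tubb3 held 625 and 268, and Dcx 1 and 0. The sum of these largest intervals was 628 in WT and 398 in Lsh-/- fibroblasts, and Stmn2 alone was higher. In embryos their sum was 786 in WT and 617 in Lsh-/-. Their part in the counts at Snrpn was not tested.

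Introns of Snrpn were different again. Of the 11 intervals inside the gene without an exon, 7 had 10 counts in embryos. Of these, 6 were higher in Lsh-/- (14.3% of all flanking intervals), and the median log2 ratio of the 7 was 2.44. The intervals overlap one another just within the short transcript, so they are not separate places, and held at most 5 counts in WT and 20 in Lsh-/- embryos. In fibroblasts they held 0 or 1 counts.

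**Figure D4:**
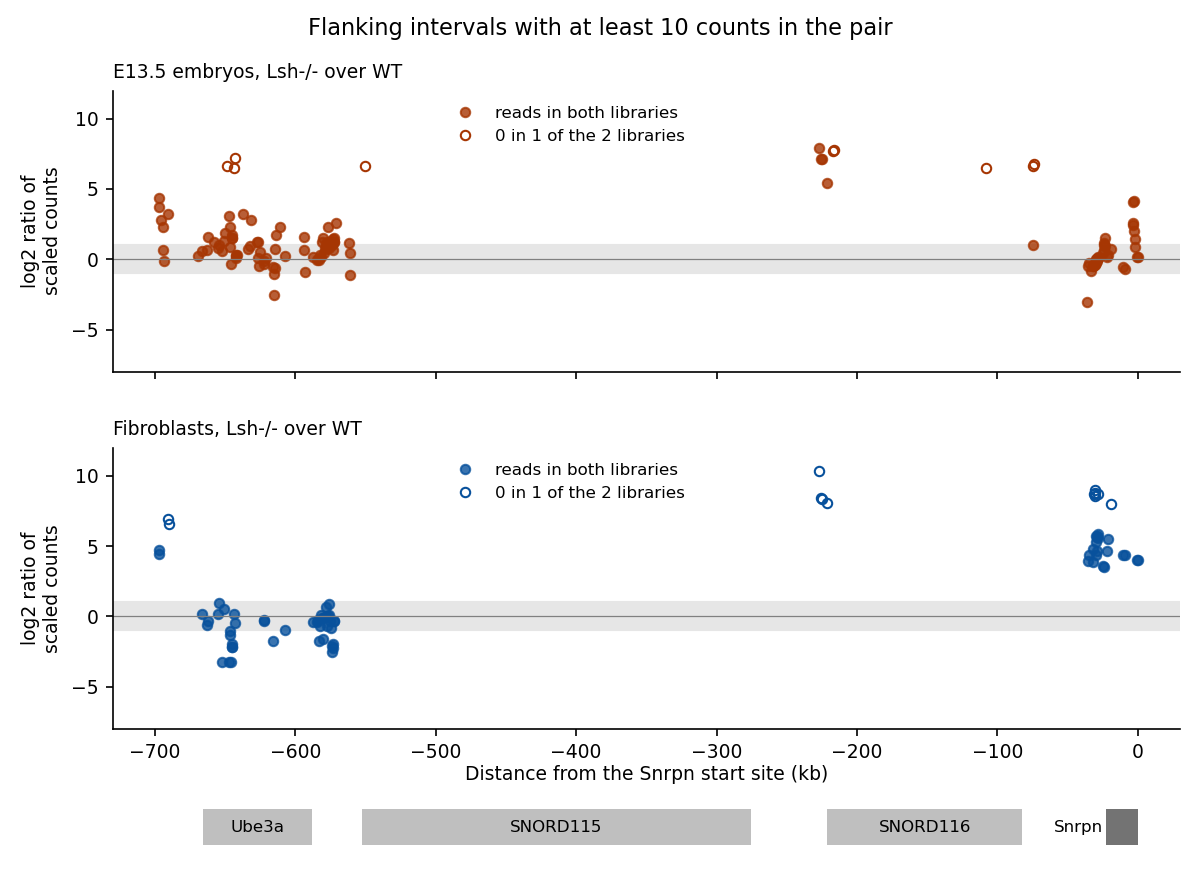
Log2 ratio of scaled counts, Lsh-/- over WT, at each flanking interval with at least 10 counts in the pair, by distance from the Snrpn start site in kb (open points have 0 counts in 1 library, the grey band marks ratios within 1 of 0). At Snrpn the fibroblast points lie at 3.50 and above, while most embryo points lie in the band.

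Over Ube3a the ratios varied between intervals. The 7 intervals over its exons held 6 to 242 counts in WT and 1 to 198 in Lsh-/- fibroblasts, and 2 to 214 in WT and 8 to 188 in Lsh-/- embryos. The largest, from 66527166, held 242 and 198, and 214 and 188, and its neighbour from 66527470 held 166 and 143, and 151 and 115. Of the 7, 6 lay within 1 of 0 in fibroblasts and 1 was lower, and in embryos 4 lay within it and 3 were higher. The interval from 66501992 was the farthest from 0 in both tissues, with 10 and 1 counts in fibroblasts and 2 and 17 in embryos. Intronic intervals of Ube3a leaned to opposite sides, as its LINE loci did. Of 39 with 10 counts in embryos 17 were higher and 2 lower, and of 13 in fibroblasts 0 were higher and 8 lower. With the total of all tables as library size, 6 of the 13 were lower, and 2 of the 7 exon intervals were higher and 1 lower in fibroblasts. Just past the gene, the intervals from 66562211, 66564692 and 66565638 held 392 and 308, 608 and 466, and 279 and 236 counts in fibroblasts. In embryos they held 628 and 680, 1166 and 1092, and 769 and 736, and the last 2 share reads with L1MB7.

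From Ube3a towards the SNORD115 genes, 14 of 27 intervals were higher in Lsh-/- embryos (14.3% of all flanking intervals) and 1 lower (14.3%), with a median log2 ratio of 1.05. In fibroblasts 0 of 21 were higher and 6 lower, and 2 were higher and 5 lower with the total of all tables as library size. The interval from 66573199 held 8 and 15 counts in fibroblasts and 31 and 62 in embryos, 2.08-fold higher in the Lsh-/- embryo (1.33 to 3.31). It lies just above C230091D08Rik, which RefSeq lists as a synonym of the host transcript Snhg14. Over the span of the SNORD115 genes few intervals were listed.

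Tissue was compared within each genotype, and these comparisons share their libraries with the genotype pairs. Among WT libraries, 5 of 12 LINE members were higher in the embryo (39.3% of all LINE loci) and 1 lower (13.3%). Of flanking intervals 42 of 92 were higher (33.2%) and 12 lower (14.0%), and of LTR members 1 of 1 (45.1%) and 0 lower (14.3%). Among Lsh-/- libraries, 11 of 16 LINE members were higher in the embryo (38.9%) and 0 lower (19.1%). Of flanking intervals 68 of 119 were higher (32.0%) and 5 lower (19.2%), and of LTR members 1 of 3 was higher (17.1%) and 2 lower (59.4%). At Snrpn exons all 7 intervals with 10 counts were higher in WT embryos than in WT fibroblasts, with a median log2 ratio of 4.97. Between the Lsh-/- libraries 6 of 8 lay within 1 of 0 and 2 were higher, with a median of 0.68.

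CpG content differed among the members. The 80 LINE members held a median of 0.270 CpG per 100 bp and ranged from 0 to 1.21, against a median of 0.538 over the 7961 listed LINE loci of chromosome 7. Their median GC content was also lower, at 33.8% against 41.4%, and the CpG values were not adjusted for it. The 5 LTR members had a median of 2.30, and the 3 IAP members held 2.30 to 2.36. The full L1M5 element held 0.292 CpG per 100 bp, Lx2B 0.0870 and L3 0. Of the LINE members higher in embryos the median was 0.565, and of those within 1 of 0 it was 0.228. In fibroblasts the 4 higher members had a median of 0.0435 and the 3 within 0.510, so the order was not the same in the 2 tissues.

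Other imprinted domains were read the same way for comparison. In fibroblasts, the span of Ndn, Magel2 and Mkrn3, further along chromosome 7, had 1 flanking interval with 10 counts, with a log2 ratio of 7.47. All 11 such intervals of the Peg3 domain were higher in Lsh-/- fibroblasts, with a median of 4.47. The 4 of the Dlk1 to Mirg domain were higher too, with a median of 1.68. In the Kcnq1 domain 12 of 84 were higher and 12 lower. Of 27 intervals of the Peg10 and Sgce domain 2 were higher and 5 lower, of 4 at Gnas 0 were higher and 1 lower, and the 1 interval of Igf2 and H19 was lower. Fibroblast counts were thus higher in Lsh-/- at the Ndn, Peg3 and Dlk1 domains, each with few intervals. The share of higher intervals at the other domains was not above that over all flanking intervals. No difference between the domains was tested. In embryos 0 of 12 intervals were higher and 0 lower at Ndn, 4 and 3 of 65 at Peg3, 11 and 5 of 52 at Dlk1 and 15 and 16 of 109 at Kcnq1. At Peg10 there were 5 higher and 6 lower of 39 in embryos, and at Gnas and Igf2 all 6 and the 1 interval lay within 1 of 0. In the 800 kb below the region 7 of 32 flanking intervals were higher and 0 lower in Lsh-/- embryos, and 0 of 25 were higher and 10 lower in Lsh-/- fibroblasts. In the 800 kb above it 11 of 15 were higher in embryos and 0 of 3 in fibroblasts, and 0 were lower in either.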

How the data were processed

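RNA-seq reads were counted by the authors on repeats and on intervals that flank them. Strand-specific paired-end libraries made by the dUTP method were mapped to mm9 with TopHat 1.4.0 (submitters' processing notes) with no mismatch allowed, and unique reads were joined to the repeatmasker annotation in Galaxy. The deposited values are raw counts without normalization, in 6 tables per library. Whether a read pair counts as 1 or 2 is not given in the sources used here. A locus that a table does not list was given 0. Unique mapping loses reads on young, near-identical copies, and reads on a repeat may belong to a longer transcript that crosses it. Since the tables do not separate the strands of the reads, sense and antisense transcripts cannot be told apart.

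Starts were taken as 0-based. Of 102 IAPLTR loci of more than 4 kb on chromosome 7, 88.2% begin with TG when read so and 0% when read from 1. Coordinates are given from 1. The paper describes flanks of equivalent width set 10 kb to either side of LTR annotations. The interval used here was read from listed elements with at least 20 counts. On chromosome 7 no such element lying whole in the kilobase from 10 to 11 kb off a LINE locus exceeded the interval's count (100% of 210 upstream and 191 downstream), against 72.1% to 88.6% in the neighbouring kilobases. LTR flanks were not checked in this way and were placed as LINE flanks were. Upstream tables give the side of lower coordinates on either strand.

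For each of 4 pairs of libraries, counts were scaled by TMM over LINE-1 flanking intervals (edgeR 4.0.16, R 4.3.3). The fibroblast libraries had effective sizes of 19481559 (WT) and 20118423 (Lsh-/-), the embryo libraries of 27051956 and 26054891. Log2 ratios were taken with a prior count of 0.125, and folds without it, in Python 3.11.15 with NumPy 2.4.6, SciPy 1.17.1, pandas 2.3.3 and matplotlib 3.10.9. No test was made, since each group is a single library. Intervals (95%) and the floor of 3 counts cover counting error only, the floor that of the WT count alone. Reads without molecular identifiers are not independent molecules. Annotation came from GENCODE vM1 on NCBIM37, which is mm9. The scaling, ratios and intervals were tested on simulated data.

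The members and all lists were chosen with earlier results of these data known. Members named are the L1M5 loci, every LTR member, the 5 LINE members with the largest total, every LINE member past a log2 ratio of 1 in a genotype pair, the largest flanking entries (3 per LINE flank table by total, and 3 past the limit in each tissue) and every flanking entry of an LTR locus. Intervals named to show exons of Snrpn and the printed promoter were chosen after their values were seen. Alternatives were a prior count of 1, total counts as library size, other count minimums, a limit of 5, narrower limits of the region and sums without the largest member.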

Additional observations from a re-analysis of the deposited data

How the results depend on the processing

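No paired analysis was possible because each group is 1 library and no result comes from a test, and no replicate was left out for the same reason. Of 148 alternative values, 93 stayed near the main one and 55 moved. No sum past a log2 ratio of 1 changed sign. The fibroblast LINE sum between Ube3a and Snrpn, at −0.12, turned positive with the total of all 6 tables and without its largest member, and sums near 0 in the tissue pairs, over Ube3a in WT at −0.06 and below Ube3a in Lsh-/- at 0.05, also turned sign. Counts are given as members higher and, after a stroke, lower.

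With a prior count of 1, LINE members were 9/0 in the embryo pair and 5/0 between WT tissues, and embryo flanking intervals 57/2. With the table's own total, flanking intervals between WT tissues were 47/4, LTR members between Lsh-/- tissues 1/1, and the LINE sum between Ube3a and Snrpn had a log2 ratio of 1.03 between Lsh-/- tissues. With the total of all 6 tables, which moves every fibroblast log2 ratio by 0.68, LINE members were 5/0 in fibroblasts and 8/0 between WT tissues, flanking intervals 47/4 between WT tissues, and that LINE sum stood at 0.56 in fibroblasts and 1.18 between WT tissues.

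With all listed loci, LINE members were 36/16 in embryos, 22/16 in fibroblasts, 29/12 between WT and 46/10 between Lsh-/- tissues. Flanking intervals were 117/27, 77/57, 100/36 and 142/22 in the same order, and LTR members 4/0 between WT and 3/2 between Lsh-/- tissues. With at least 50 counts, LINE members were 3/0, 1/0, 0/0 and 3/0, LTR members 1/0, 1/0, 0/0 and 1/1, and flanking intervals 14/0, 20/1, 24/1 and 20/0. With a limit of 5, LINE members were 5/0, 3/0, 1/0 and 1/0, flanking intervals 13/0, 19/0, 23/0 and 14/0, and LTR members 1/0 in embryos and 0/0 between Lsh-/- tissues.

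With limits 100 kb narrower, LINE members were 6/0 in embryos, 2/0 in fibroblasts and 3/0 between WT tissues. Flanking intervals were 4/14 in fibroblasts, 13/8 between WT and 48/1 between Lsh-/- tissues, and LTR members 0/0 between WT and 1/1 between Lsh-/- tissues. Narrower limits leave out Lx2B and the Snrpn exons. Without the largest member of a segment, the log2 ratio below Ube3a was 0.95 in embryos and 1.45 in fibroblasts, and between Ube3a and Snrpn it was 0.87 and 0.12. The cause of the other shifts was not tested. Most members held too few reads for a ratio, which limits what these libraries can show.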
